A study of Mus musculus with 10 samples.

Results

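Whole-lung RNA from wild-type mice given lipopolysaccharide (LPS) was compared with whole-lung RNA from wild-type mice given Vehicle, across all genes of the deposited count table. The 3 libraries labelled LPS and the 3 labelled Vehicle were used, 6 of the 10 in the series, and 17139 of the 54532 genes passed a filter on low counts and were tested. LPS is the glycolipid of the outer membrane of Gram-negative bacteria. The other 4 libraries (LPS+TSLP) came from wild-type lungs given the recombinant epithelial cytokine TSLP ahead of LPS. They entered the filter, the scaling, the trend removal and principal components below, and the estimate of spread in a fit of 3 groups. They were not part of the comparison of LPS with Vehicle. In what follows V1 to V3 are Vehicle replicates 1 to 3, L1 to L3 are LPS replicates 1 to 3, and T1 to T4 are LPS+TSLP replicates 1 to 4. Tissue and genotype were the same throughout, so the agent was the stated difference. The labels do not give the dose, route or timing of LPS, what the vehicle was, or the strain, age or sex of the animals. They do not say that libraries of a group came from separate animals, so p-values measure the spread between these samples, and how far it is technical was not tested.

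LPS is sensed in the lung by TLR4 with the co-receptors CD14 and MD-2, on macrophages and also on endothelial and epithelial cells. The receptor signals through MyD88 and TRIF to NF-kB, AP-1 and interferon regulatory factors, and the cytokines made first act on the remaining cells of the organ. Beyond cytokines, activated myeloid cells are known to rewire central metabolism and nutrient import, while the gas-exchange surface depends on alveolar type 1 and type 2 epithelium, a dense capillary bed, and fibroblasts that supply matrix and Wnt, FGF and retinoid signals. Whole-lung RNA mixes all of these, so in every result below fewer cells of a type and less RNA per cell cannot be told apart.

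Total counts ran from 17505995 to 18374461 in the 6 libraries. On the first principal component (43.4% of the variance) V1, V2 and V3 lay at −103, −93.4 and −53.0 and the LPS libraries between 35.2 and 61.8, so V3 was the Vehicle library nearest to LPS. L1 differed from the other 5 in sex-linked genes: Xist, the X-inactivation RNA, had 206 CPM (counts per 1000000) there and at most 0.452 CPM elsewhere, and the Y-linked genes Ddx3y, Kdm5d, Eif2s3y and Uty had 0 counts. Ddx3y had 7.92, 6.03 and 11.4 CPM in V1 to V3 and 70.1 and 89.6 CPM in L2 and L3, while Kdm5d had 13.02 to 20.1 CPM in those 5 libraries. By these genes L1 looked female and the other 5 male, so L1 was no repeat of L2 or L3. Markers of lung were present in all 6: Sftpc ran from 1282 to 15167 CPM, Scgb1a1 from 8565 to 26343 CPM and Ager from 969 to 2992 CPM. Heart and fat markers varied most. The atrial myosin Myh6 had 13.8, 301 and 7.37 CPM in V1 to V3 and 2.62, 0.113 and 54.2 CPM in L1 to L3, and Adipoq, the adipocyte hormone adiponectin, had 1.91, 9.98 and 0.492 CPM in V1 to V3 and 0.0609, 0 and 0.111 CPM in L1 to L3. Skeletal muscle (Acta1, Myh4), thymus (Rag1, Dntt) and oesophagus (Krt4, Krt13) markers stayed at or below 0.674 CPM.

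After LPS 2437 genes rose (14.2% of those tested) and 1836 fell (10.7%), by edgeR's quasi-likelihood test at a Benjamini-Hochberg adjusted p under 0.05, together 24.9%. Of these 1845 (10.8%) rose and 1169 (6.82%) fell at least 2-fold. The LPS and Vehicle libraries did not overlap in 8536 genes (49.8%), 24.7% with LPS above and 25.1% with LPS below. The median log2 fold change over all genes was 0.01. With 1 library left out the rises numbered 1021, 1012 and 1558 without V1, V2 and L1, and the falls 640, 824, 964 and 1223 without V1, V2, L1 and L2. Without V3 there were 2131 rises and 1665 falls. Of 65 gene lists' counts of 1 or 2 calls in 1 direction, 61 moved by over 1.5 times without some library, so counts that small are given below mostly without such values.

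Outside the cytokine and chemokine families, the 10 largest rises without overlap among protein-coding genes of at least 10 CPM were those of Ifit1, Inhba, Olfr56, Orm3, Slc7a11, Tmed5, Saa3, Ifi205, Gbp7 and Hmgn5, with log2 fold changes from 4.65 to 4.07. Inhba, which encodes the activin A chain (ENSMUSG00000041324, chromosome 13, 16011851 to 16031621, positions on GRCm38 here and below), had 0.449, 0.641 and 2.62 CPM in V1 to V3 and 27.3, 17.1 and 47.3 CPM in L1 to L3 (log2 fold change 4.62, SE 0.65, adjusted p = 0.00219). Every LPS library exceeded every Vehicle library several times over, and V3 was the highest of its group. The 10 largest falls were those of Car3, Col14a1, Colq, Scube2, Myh7, Pcdhac2, Glp1r, Aldh1a3, Mgl2 and Tril, from −4.597 to −3.199. For Pcdhac2 0.481 of all 50-base windows are repeated in a second gene model. Scube2, a secreted protein that helps release Hedgehog ligands (ENSMUSG00000007279, chromosome 7, 109798676 to 109865679), had 78.9, 63.04 and 16.4 CPM in V1 to V3 and 0.975, 5.76 and 4.28 CPM in L1 to L3 (log2 fold change −3.84, SE 0.73, adjusted p = 0.00602). Colq, the collagen tail that anchors acetylcholinesterase, went from 27.1 ± 17.7 to 1.65 ± 0.745 CPM (mean ± SD, n = 3 libraries a group, as in all such pairs below; log2 fold change −4.03, SE 0.702, adjusted p = 0.00434). Car3, a carbonic anhydrase abundant in fat, had 5.898, 36.6 and 5.73 CPM in V1 to V3 and 0.0609, 0 and 1.89 CPM in L1 to L3, and its highest library, V2, was also the highest for Adipoq; the part of fat in its fall was not tested. After removal of the GC trend no call was made for Ifi205 (log2 2.53, adjusted p = 0.0531). No call was left without 1 library for Saa3 (3.94 without V2, 3.63 without L1), Car3 (−4.99 without V1, −3.16 without V2, −4.08 without L1, −4.02 without L2), Pcdhac2 (−3.38 without L2) and Aldh1a3 (−2.36 without V2, −3.43 without L1, −3.48 without L2). A shift over 1.5-fold without loss of the call was seen for Inhba (5.79 without V3), Olfr56 (5.65 without V3), Orm3 (6.16 without V3), Slc7a11 (5.51 without V3), Saa3 (6.18 without V3), Ifi205 (5.197 without V3), Car3 (−8.74 without L3), Myh7 (−3.03 without V1), Pcdhac2 (−4.74 without L3) and Glp1r (−4.18 without L3).

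The response followed base composition. Genes were ranked by the GC content of their exons, and in the decile with the least GC (up to 41.3%) 50.3% of 1713 genes rose and 0.525% fell, with a median log2 fold change of 1.21. In the decile with the most GC (57.2% and above) 6.19% rose and 17.6% fell, with a median of −0.29. The same genes were already ordered within the Vehicle group. Relative to the mean of the 6 libraries, the median gene of the GC-poorest decile lay at −0.62, −0.57 and −0.26 on the log2 scale in V1 to V3 and at 0.40, 0.51 and 0.60 in L1 to L3. Without L1, 42.6% of that decile still rose. Gene length showed a weaker gradient: in the shortest decile of exon length (up to 1200 bases) 17.5% rose and 1.23% fell, and in the longest (from 9340 bases) 17.6% rose and 22.8% fell.

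**Figure D1:**
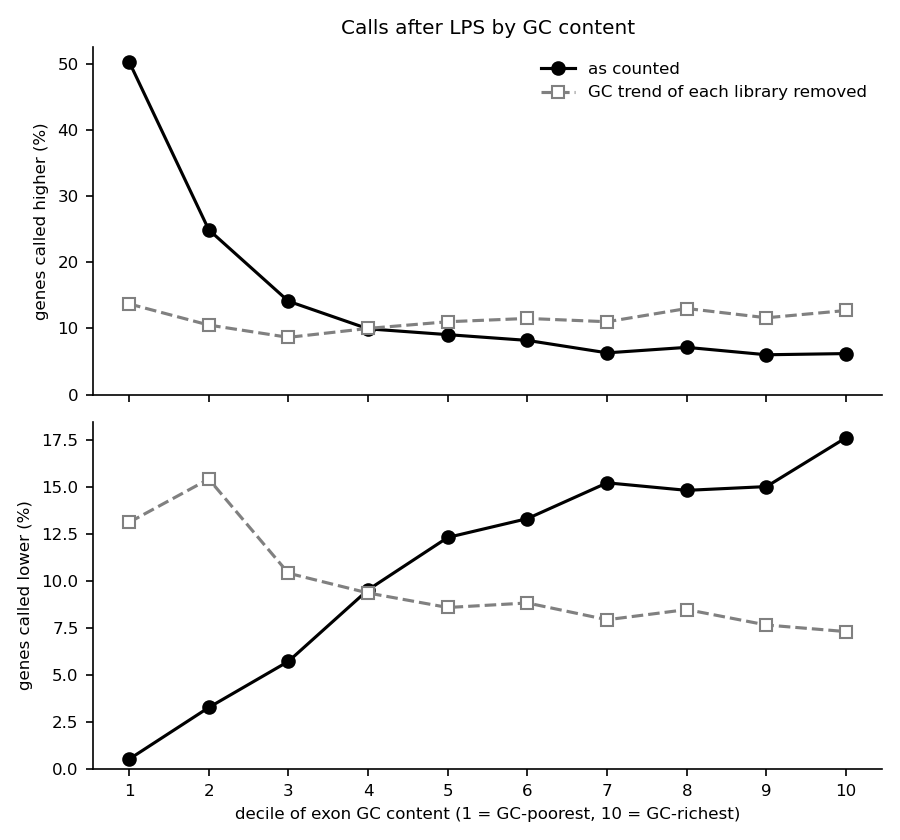
Share of genes called higher (upper panel) and lower (lower panel) after LPS in each decile of exon GC content, from GC-poorest (1) to GC-richest (10), in percent of the 1711 to 1714 genes of a decile. Filled circles are the fit as counted, open squares the fit with each library's GC trend removed; the share called higher falls from 50.3% in decile 1 to 6.19% in decile 10 as counted, and is 13.7% and 12.7% with the trend removed.

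With each library's GC trend removed, 1461 of the 2437 rises (60.0%) and 1150 of the 1836 falls (62.6%) were called again in the same direction, among 1947 rises and 1662 falls in all (11.4% and 9.7%). With the trends of GC and of length both removed, 1346 (55.2%) and 760 (41.4%) were called again. The GC-poorest tertile (up to 46.3% GC, 5710 genes) held 1577 of the rises (64.7%), of which 604 (38.3%) were called again, and 201 of the falls, of which 200 were. A trend fitted to all genes also takes out any true response that is shared by GC-poor genes, and whether the trend arose in the lungs or in the making of the libraries was not tested. For most programmes below the count with both trends removed is therefore given beside the first count. In that fit 9.56% of all genes rose and 6.1% fell.

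Promoters were described by short motifs, because the calls did not use them. RefSeq promoters (250 bases before to 50 after the start, GRCm38.p6) were matched by symbol to 11421 protein-coding genes tested, 1688 of which rose and 1377 fell. The interferon-stimulated response element, taken as a repeat of TTTC with 2 open bases between the copies, stood on either strand in 5.39% of the promoters of genes that rose, 1.45% of those that fell and 3.28% of all. The NF-kB form, GGG and TTTCC with 2 open bases between them, stood in 2.78%, 1.31% and 1.66%, the AP-1 form TGANTCA in 6.40%, 3.56% and 5.42%, and the STAT form TTCNNNGAA (GAS) in 8.29%, 5.01% and 6.93%. The E-box CACGTG (10.2%, 8.86% and 9.54%) and the CArG box (1.18%, 1.23% and 1.36%) lay closer together as counted, and TATAAA stood in 9.89%, 6.83% and 7.82%. With the calls of the GC-corrected fit, the promoters of genes that rose and of those that fell held the interferon element in 5.27% and 1.68%, the NF-kB form in 2.64% and 1.36%, AP-1 in 5.64% and 3.45%, and GAS in 8.21% and 5.37%. The E-box stood in 11.6% and 8.18%, the CArG box in 1.39% and 0.962%, and TATAAA in 9.96% and 7.54%. These shares are descriptions without a test.

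To show where such letters lie, the promoter of the gene with the smallest adjusted p that rose and held a motif is printed for metabolism, transport, receptors and transcription factors, from 250 bases before the start to 10 after it, with motif letters in capitals. Rpe, an enzyme of the pentose phosphate pathway (chr1:66700581-66700840, plus strand), held the interferon element 197 bases before the start. Slc31a2, a copper transporter (chr4:62286179-62286438, plus strand), held an E-box at the start itself. Cd80, the costimulatory ligand of CD28 (chr16:38458683-38458942, plus strand), held an AP-1 form 42 bases before it and a TATA form on the other strand 4 bases after it. Zfp994, a zinc finger gene (chr17:22225605-22225864, minus strand), held an E-box 160 bases and an interferon element 62 bases before it. For Slc31a2 and Cd80 the start used by RefSeq lies inside the gene model of the count table. A match is a description of letters, not a bound site.
Rpe: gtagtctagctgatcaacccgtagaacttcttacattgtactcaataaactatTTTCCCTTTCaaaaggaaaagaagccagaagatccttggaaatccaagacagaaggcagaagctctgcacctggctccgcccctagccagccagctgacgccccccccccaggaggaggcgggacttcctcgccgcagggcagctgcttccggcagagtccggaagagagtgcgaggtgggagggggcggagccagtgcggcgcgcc
Slc31a2: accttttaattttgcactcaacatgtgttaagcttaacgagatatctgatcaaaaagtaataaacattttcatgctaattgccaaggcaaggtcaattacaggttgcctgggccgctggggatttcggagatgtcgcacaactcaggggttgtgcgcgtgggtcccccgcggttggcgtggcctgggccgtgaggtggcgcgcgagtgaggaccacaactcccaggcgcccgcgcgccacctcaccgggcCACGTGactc
Cd80: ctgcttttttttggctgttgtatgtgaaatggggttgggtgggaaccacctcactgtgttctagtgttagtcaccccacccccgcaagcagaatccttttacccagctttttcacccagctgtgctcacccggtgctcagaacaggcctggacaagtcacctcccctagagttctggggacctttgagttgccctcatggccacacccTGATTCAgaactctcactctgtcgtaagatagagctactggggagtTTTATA
Zfp994: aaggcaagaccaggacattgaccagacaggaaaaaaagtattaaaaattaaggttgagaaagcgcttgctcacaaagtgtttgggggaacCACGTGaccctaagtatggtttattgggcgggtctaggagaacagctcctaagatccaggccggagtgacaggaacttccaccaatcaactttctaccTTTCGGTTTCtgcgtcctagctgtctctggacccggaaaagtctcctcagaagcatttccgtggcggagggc

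Rpe (ribulose-phosphate epimerase, ENSMUSG00000026005, chromosome 1, 66700831 to 66719805) had 7.25, 8.97 and 13.98 CPM in V1 to V3 and 38.3, 31.01 and 37.5 CPM in L1 to L3 (log2 fold change 1.82, SE 0.28, adjusted p = 0.00284). Zfp994 (ENSMUSG00000096433, chromosome 17, 22197265 to 22225616) had 0.786, 0.907 and 1.04 CPM in V1 to V3 and 9.99, 10.6 and 9.498 CPM in L1 to L3 (log2 fold change 3.45, SE 0.305, adjusted p = 0.000453). Its LPS values lay within 9.498 to 10.6 CPM, and no Vehicle value exceeded 1.04 CPM. Values of Slc31a2 and Cd80 are given with their groups below. 

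Subunits of the respiratory chain rose together. Of 103 nuclear-encoded members tested 48 rose and 0 (0 at an unadjusted p under 0.05, 0 by DESeq2, 0 by limma-voom) fell, with a median log2 fold change of 0.83. By complex, 22 of 41 subunits of complex I, 5 of 9 of complex III, 8 of 16 of complex IV and 9 of 17 of ATP synthase rose, and 0 of 4 of complex II. Atp5mpl, a small membrane subunit of ATP synthase (ENSMUSG00000021290, chromosome 12, 111961375 to 111966977), had 26.6, 26.2 and 26.2 CPM in V1 to V3 and 127, 77.8 and 58.6 CPM in L1 to L3 (log2 fold change 1.74, SE 0.29, adjusted p = 0.00365). Ndufaf4, an assembly factor of complex I (ENSMUSG00000028261, chromosome 4, 24898083 to 24905001), had 5.28, 7.05 and 7.32 CPM in V1 to V3 and 21.6, 21.7 and 22.8 CPM in L1 to L3 (log2 fold change 1.75, SE 0.23, adjusted p = 0.00196). Every LPS library exceeded every Vehicle library in both. Cox7b, a small subunit of cytochrome c oxidase, rose by log2 1.51. These genes are short, with a median exon length of 1381 bases in complex I, and with GC and length trends removed 29 rose and the median was 0.55. The rises numbered 15, 13, 29 and 15 without V1, V2, V3 and L1. With the GC trend removed no call was made for Cox7b (log2 0.84, adjusted p = 0.0564).

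Cytosolic ribosomal protein genes, also short, moved the same way: 49 of 82 rose and 0 (0 at an unadjusted p under 0.05, 0 by DESeq2, 0 by limma-voom) fell, with a median of 0.92 (37 and 0.77 with both trends removed; 11, 7, 20 and 11 without V1, V2, V3 and L1). Rps27l, a p53-inducible paralogue of a small-subunit protein, rose from 45.8 ± 4.5001 to 105 ± 22.5 CPM (log2 fold change 1.198, SE 0.204, adjusted p = 0.00406), and Rps28 by log2 2.09. Ribosomal proteins have many processed pseudogenes, so their counts can be split between copies. The 13 mitochondrially encoded mRNAs behaved differently under the GC correction: 4 rose with a median of 1.14 as counted, and 0 rose with a median of −0.64 after it. Their summed level was 10829, 12304 and 11099 CPM in V1 to V3 and 11778, 24329 and 21637 CPM in L1 to L3, so L1 lay within the Vehicle range. mt-Nd6, their complex I subunit on the light strand, had 153, 145 and 182 CPM in V1 to V3 and 874, 839 and 649 CPM in L1 to L3 (log2 fold change 2.297, SE 0.38, adjusted p = 0.00365). After removal of the GC trend no call was made for mt-Nd6 (log2 0.09, adjusted p = 0.912). The 4 mitochondrially encoded rises numbered 1, 1, 1, 1, 2, 2 and 2 without V1, V2, V3, L2, L3, T2 and T3.

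In fatty acid and triglyceride synthesis more genes fell than rose. Of 26 genes of this list 9 fell and 3 rose, with a median of −0.604. Acacb, the acetyl-CoA carboxylase of the mitochondrial surface (ENSMUSG00000042010, chromosome 5, 114146535 to 114250761), had 42.01, 47.3 and 23.2 CPM in V1 to V3 and 9.201, 9.04 and 8.05 CPM in L1 to L3 (log2 fold change −2.097, SE 0.28, adjusted p = 0.00196). Scd1, the stearoyl-CoA desaturase that makes oleate (ENSMUSG00000037071, chromosome 19, 44394455 to 44407879), had 2649, 3816 and 1441 CPM in V1 to V3 and 562, 662 and 693 CPM in L1 to L3 (log2 fold change −2.04, SE 0.48, adjusted p = 0.0125). Both groups kept apart in these genes, and V3 was the lowest Vehicle library in each. Lpin1, a phosphatidate phosphatase, fell from 46.9 ± 17.7 to 14.7 ± 3.62 CPM (log2 −1.68), Fads2, the delta-6 desaturase, at log2 −1.58, and Srebf1, the transcription factor that drives this pathway, at log2 −1.02. Fasn, the fatty acid synthase, went from 967 ± 261 to 252 ± 67.6 CPM (log2 −1.94, adjusted p = 0.01999). Of 5 stearoyl and fatty acid desaturases 4 fell, and the median over the 5 was −1.53. With both trends removed 5 fell and 2 rose. Other lists of lipid synthesis differed, and brackets after a pair of counts give that pair with both trends removed, here and below. Of 27 sphingolipid and ceramide genes 5 rose and 2 fell (4 and 2). Of 18 phospholipid and surfactant lipid genes 2 rose and 1 fell (2 and 0). Of 24 cholesterol synthesis genes 1 rose and 3 fell (0 and 1). In the fit without both trends no call was made for Srebf1 (log2 −0.53, adjusted p = 0.0655) and Fasn (log2 −1.21, adjusted p = 0.0992). The call lost without 1 library was that of Fasn (−1.89 without V1, −1.77 without V2, −1.75 without L1). The 3 fatty acid synthesis rises numbered 0, 0 and 0 without V1, V2 and L1. The 5 sphingolipid rises numbered 3, 3, 3 and 3 without V1, V2, L1 and L3. The 3 cholesterol synthesis falls numbered 0, 0, 1 and 1 without V1, V2, L1 and L2.

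Genes of lipid handling split. Lpl, the lipase that frees fatty acids from lipoproteins (ENSMUSG00000015568, chromosome 8, 68880491 to 68907448), had 54.8, 49.9 and 77.3 CPM in V1 to V3 and 442, 337 and 646 CPM in L1 to L3 (log2 fold change 2.97, SE 0.55, adjusted p = 0.00555), so each LPS library was several times any Vehicle library. Plin2, a coat protein of lipid droplets in macrophages and lipofibroblasts, rose from 188 ± 70.7 to 523 ± 213 CPM (log2 1.47, adjusted p = 0.0158). Cidec, a droplet protein of fat cells and lipid-laden macrophages, fell at log2 −2.24, Mgll, the monoglyceride lipase, at log2 −1.302, and Lipa, the lysosomal acid lipase, at log2 −0.97. Ppara, the nuclear receptor for fatty acid oxidation, fell from 3.52 ± 0.367 to 0.696 ± 0.435 CPM (log2 fold change −2.32, SE 0.53, adjusted p = 0.0118). Of 18 genes of lipolysis and lipid droplets 1 rose and 5 fell (1 and 5), while 2 and 1 of 24 oxidation genes rose and fell (1 and 1), Ppara among the latter. Of 7 fat markers (Adipoq, Cfd, Plin1, Retn, Ucp1, Car3 and Cidec) Plin1, Car3 and Cidec fell, Plin1 at log2 −3.77. Their summed level ran from 31.3 to 234 CPM in V1 to V3 and from 2.94 to 17.1 CPM in L1 to L3, with Adipoq, Cfd and Car3 at 0 in L2, Plin1 at 0 in L1 and Ucp1 at 0 in all but V3. Without V2, the library highest in these markers, 6 of the synthesis genes fell, and 6 also fell without V1, where the markers summed to 53.0 CPM. Over all genes the falls also dropped, from 1836 to 824 without V2 and 640 without V1. The part of fat in these results was not tested. No call was left without 1 library for Plin2 (1.38 without V1, 1.28 without V2, 1.29 without L1), Lipa (−0.82 without V1, −0.79 without L1, −0.93 without L2) and Plin1 (−4.06 without V1, −2.68 without V2, −3.205 without L1, −3.51 without L2). A shift over 1.5-fold without loss of the call was seen for Plin1 (−5.38 without L3). The 5 lipolysis and droplet falls numbered 2, 3, 2 and 2 without V1, V2, L1 and L2.

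Enzymes known from activated myeloid cells were among the rises. Acod1, which makes itaconate from aconitate (ENSMUSG00000022126, chromosome 14, 103046977 to 103056573), had 1.35, 31.5 and 62.04 CPM in V1 to V3 and 437, 265 and 679.9 CPM in L1 to L3 (log2 fold change 3.86, SE 1.01, adjusted p = 0.0192), and its Vehicle values spread from 1.35 to 62.04 CPM without reaching the lowest LPS library. Among 18 genes of tryptophan, NAD and itaconate 5 rose and 0 (1 at an unadjusted p under 0.05, 1 by DESeq2, 0 by limma-voom) fell: besides Acod1 they included Bst1, an NAD-cleaving ectoenzyme (log2 1.99), Nampt, the entry enzyme of NAD salvage (1.80), and Ido1, which opens tryptophan breakdown (2.59). Of 23 genes of arginine, proline and polyamines 5 rose and 0 (0 at an unadjusted p under 0.05, 0 by DESeq2, 0 by limma-voom) fell, among them Sat1, which acetylates polyamines (1.02), and Arg2, the mitochondrial arginase (2.18). Ass1, which rebuilds arginine from citrulline, was at 1.704; 0.425 of its 50-base windows are repeated in a second gene model. Upp1, the uridine phosphorylase, rose from 24.4 ± 13.7 to 119 ± 42.4 CPM (log2 fold change 2.29, SE 0.44, adjusted p = 0.00605). With both trends removed 4 and 3 rose. With the GC trend removed no call was made for Nampt (log2 1.07, adjusted p = 0.0699) and Sat1 (log2 0.73, adjusted p = 0.0812), nor with both trends removed for Ido1 (log2 2.31, adjusted p = 0.05305) and Arg2 (log2 1.75, adjusted p = 0.06901). A call depended on single libraries for Acod1 (3.85 without V2), Ido1 (2.23 without V1, 2.61 without V2, 2.64 without L1, 2.43 without L2), Sat1 (1.04 without V1, 0.96 without V2, 0.82 without L1), Arg2 (1.83 without V1, 1.95 without V2, 2.201 without L1) and Ass1 (1.56 without V1, 1.76 without V2, 1.603 without L1). Still called but moved over 1.5-fold were Acod1 (4.82 without V3) and Arg2 (3.01 without V3). The 5 tryptophan and NAD rises numbered 3, 2, 3 and 3 without V1, V2, L1 and L2. The 5 arginine rises numbered 0, 0, 0 and 3 without V1, V2, L1 and L3.

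Slc7a11, the cystine importer that feeds glutathione synthesis (ENSMUSG00000027737, chromosome 3, 49892526 to 50443614), had 0.7302, 4.43 and 11.5 CPM in V1 to V3 and 98.2, 55.97 and 199.8 CPM in L1 to L3 (log2 fold change 4.404, SE 0.85, adjusted p = 0.00635). Sod2, the mitochondrial superoxide dismutase, rose from 181 ± 71.6 to 687 ± 238 CPM (log2 fold change 1.92, SE 0.35, adjusted p = 0.00527) and Txn1, thioredoxin, by log2 1.44, whereas Cat, catalase, fell at log2 −1.05. In all 5 of 26 glutathione and NRF2 target genes rose and 2 fell (4 and 1). Of 22 glutathione S-transferases 0 (1 at an unadjusted p under 0.05, 1 by DESeq2, 0 by limma-voom) rose and 0 (0 at an unadjusted p under 0.05, 0 by DESeq2, 0 by limma-voom) fell, with a median of −0.01 (1 rose without L3 and 1 without T1). Glycolysis genes mostly did not pass: 1 of 28 rose and 2 fell. Hk3, the hexokinase of myeloid cells, rose (log2 1.59), and Pdk2, a kinase that inhibits pyruvate dehydrogenase (log2 fold change −1.64, SE 0.25, adjusted p = 0.00295), and Pfkm, the muscle phosphofructokinase (−1.096), fell. Ldha, lactate dehydrogenase A, was at 0.39 (adjusted p = 0.371) and Hk1, the common hexokinase, at −0.302 (0.388). With both trends removed 6 glycolysis genes rose and 2 fell. Leaving out 1 library ended the call of Txn1 (1.38 without V1), Hk3 (1.29 without V1, 1.59 without V2, 1.73 without L1, 1.301 without L3) and Pfkm (−0.96 without V1, −1.02 without V2). A shift over 1.5-fold without loss of the call was seen for Slc7a11 (5.51 without V3). The 5 glutathione and NRF2 rises numbered 2, 3 and 3 without V1, V2 and L1.

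Detoxifying enzymes gave several falls and few rises. Of 27 flavin monooxygenases, carboxylesterases and sulfotransferases 5 fell and 0 (1 at an unadjusted p under 0.05, 1 by DESeq2, 0 by limma-voom) rose (median −0.83; 5 fell with both trends removed), and of 32 cytochrome P450 genes 4 fell and 1 rose (3 and 2 with both trends removed; median −0.46). The P450 falls were 12.5% of their list, against 10.7% of all genes. Of 35 aldehyde, aldo-keto and alcohol dehydrogenases 1 rose and 5 fell (0 and 4). Cyp2e1, which oxidises ethanol and small solvents, had 13.8, 13.9 and 2.29 CPM in V1 to V3 and 0.487, 1.299 and 1.4996 CPM in L1 to L3 (log2 fold change −3.17, SE 0.66, adjusted p = 0.00825). V3 lay nearer to the LPS libraries than to V1 and V2. Ces2g, a carboxylesterase, fell from 24.7 ± 9.81 to 4.94 ± 1.64 CPM (log2 fold change −2.32, SE 0.37, adjusted p = 0.003104). Of 17 retinoid genes 3 fell and 0 (0 at an unadjusted p under 0.05, 0 by DESeq2, 0 by limma-voom) rose, with Aldh1a2, the retinaldehyde dehydrogenase of mesothelium and fibroblasts, falling from 19.8 ± 4.68 to 5.33 ± 0.193 CPM (log2 fold change −1.896, SE 0.29, adjusted p = 0.00271). The heparan sulfate editing enzymes Sulf1 and Sulf2 fell at log2 −2.04 and −1.48, 2 of 6 falls among 29 genes of that list. With both trends removed 3 genes of that list fell, and 3 of the retinoid list. The 5 flavin monooxygenase and esterase falls numbered 1, 2, 8, 2 and 2 without V1, V2, V3, L2 and L3. The 4 cytochrome P450 falls numbered 1, 1, 2, 1, 2, 1 and 7 without V1, V2, V3, L1, L2, L3 and T1. The 5 dehydrogenase falls numbered 2, 1, 2, 2, 3, 8 and 3 without V1, V2, L1, L2, L3, T1 and T2. The 3 retinoid falls numbered 1, 1, 1 and 5 without V2, L1, L2 and T1. The 6 heparan sulfate list falls numbered 2, 3, 3 and 10 without V1, L1, L2 and T1.

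Of 29 haem and iron genes 6 rose and 3 fell (4 and 2). As counted these are 20.7% and 10.3%, against 14.2% and 10.7% of all genes. Fth1, the ferritin heavy chain that stores iron, rose from 3202 ± 1535 to 10598 ± 2491 CPM (log2 1.73, adjusted p = 0.0128), and Steap3, an endosomal ferrireductase, fell from 45.7 ± 13.8 to 16.2 ± 1.94 CPM (log2 fold change −1.498, SE 0.23, adjusted p = 0.00301). Of 28 genes of the tricarboxylic acid cycle 1 rose and 3 fell (0 and 0). Of 8 pentose phosphate genes 1 rose and 0 (0 at an unadjusted p under 0.05, 0 by DESeq2, 0 by limma-voom) fell (2 and 0). Of 16 genes of glycogen and gluconeogenesis 0 (1 at an unadjusted p under 0.05, 1 by DESeq2, 0 by limma-voom) rose and 4 fell (0 and 1). Of 21 genes of serine, glycine and one-carbon units 1 rose and 0 (2 at an unadjusted p under 0.05, 2 by DESeq2, 1 by limma-voom) fell (1 and 0). Of 30 genes of nucleotide synthesis and purine breakdown 3 rose and 3 fell (2 and 1). As counted, rises and falls were 3.57% and 10.7% of the tricarboxylic acid cycle list and 12.5% and 0% of the pentose phosphate list. They were 0% and 25% of the glycogen list, 4.76% and 0% of the one-carbon list, and 10% and 10% of the nucleotide list. Leaving out 1 library ended the call of Fth1 (1.49 without V1, 1.603 without V2). The 6 iron rises numbered 1, 1 and 3 without V1, V2 and L1. The 3 iron falls numbered 1, 1 and 1 without V1, V2 and L2. The 3 tricarboxylic acid cycle falls numbered 0, 1, 1 and 6 without V1, V2, L2 and T1. The 4 glycogen falls numbered 1, 1, 2 and 1 without V1, V2, L1 and L2. The 3 nucleotide rises numbered 6 without T1. The 3 nucleotide falls numbered 0, 1, 0 and 1 without V1, V2, L1 and L2.

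**Figure D2:**
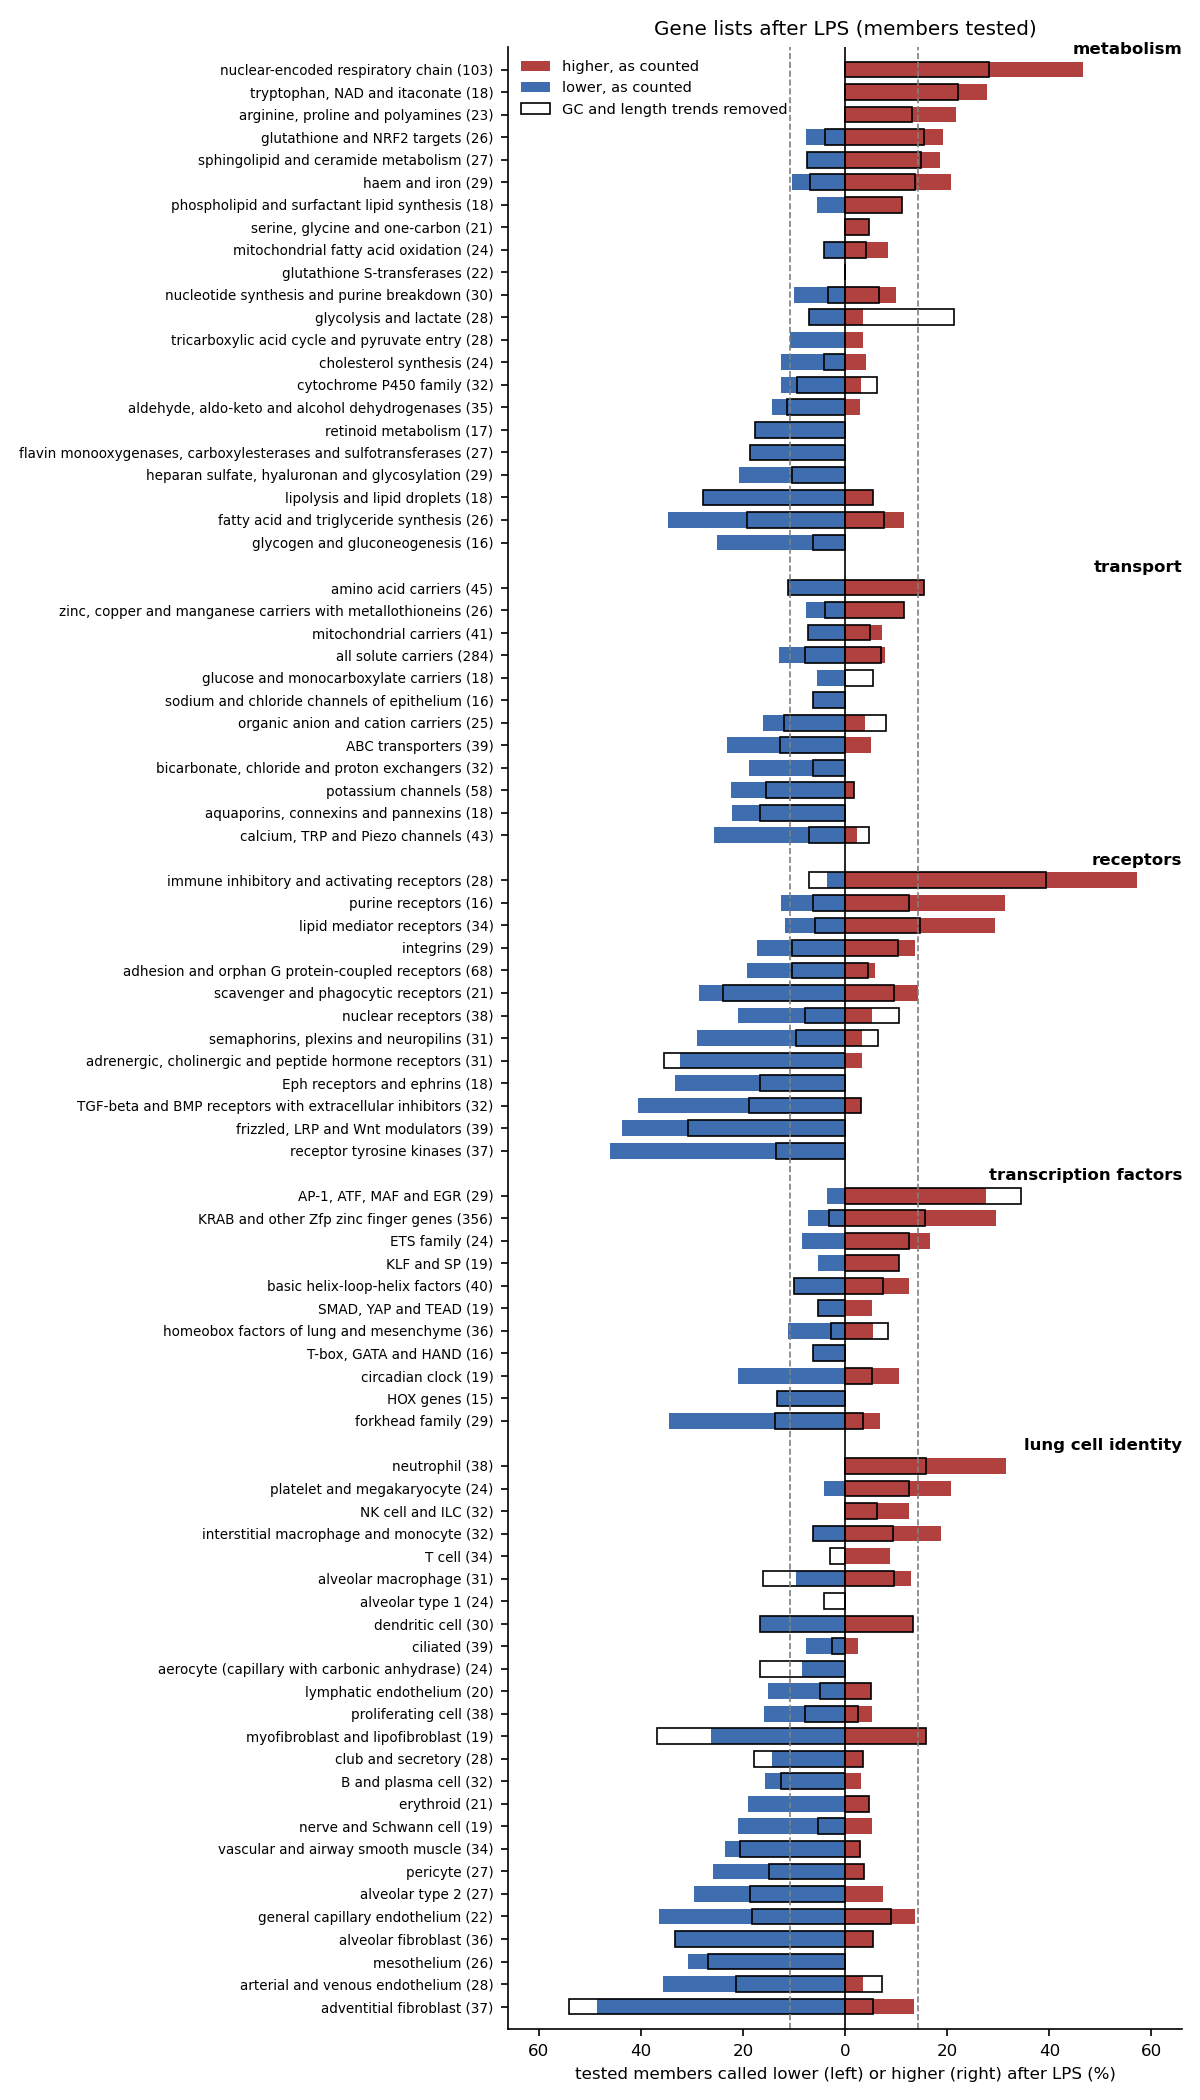
Share of tested members called higher (right) and lower (left) after LPS, in percent, for the gene lists of metabolism, transport, receptors, transcription factors and lung cell identity with at least 15 tested members. Filled bars are the fit as counted, open outlines the fit with GC and length trends removed, and dashed lines mark the shares over all genes as counted, 14.2% higher and 10.7% lower; immune receptors (57.1% higher) and the respiratory chain (46.6%) reach farthest to the right, and adventitial fibroblast markers (48.6% lower) farthest to the left.

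More solute carriers fell than rose. Of 284 tested 22 rose (7.75%, against 14.2% of all genes) and 37 fell (13.03%, against 10.7%), with a median of −0.22. Slc31a2, a copper carrier of endosomes (ENSMUSG00000066152, chromosome 4, 62262562 to 62298411), had 37.3, 41.4 and 49.5 CPM in V1 to V3 and 116, 95.8 and 149 CPM in L1 to L3 (log2 fold change 1.49, SE 0.25, adjusted p = 0.00393). Slco2b1, an organic anion carrier (ENSMUSG00000030737, chromosome 7, 99657804 to 99711340), had 32.2, 18.04 and 16.002 CPM in V1 to V3 and 4.51, 4.07 and 3.17 CPM in L1 to L3 (log2 fold change −2.49, SE 0.43, adjusted p = 0.00422). Slc4a5, an electrogenic bicarbonate cotransporter, fell from 33.7 ± 17.6 to 7.35 ± 0.724 CPM (log2 fold change −2.195, SE 0.35, adjusted p = 0.00316). These groups did not overlap. Slc18a2, the vesicular monoamine transporter, rose by log2 2.05, and Slc25a23, a calcium-regulated mitochondrial ATP-phosphate carrier, fell at log2 −1.59. With both trends removed 20 carriers rose and 22 fell. The 22 carrier rises numbered 7, 6, 9 and 13 without V1, V2, L1 and L3. The 37 carrier falls numbered 13, 14, 18 and 58 without V1, V2, L1 and T1.

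By substrate, 7 of 45 amino acid carriers rose and 5 fell (7 and 5). As counted these are 15.6% and 11.1%, near the 14.2% and 10.7% of all genes. Slc7a2, a cationic amino acid transporter that supplies arginine, rose with Slc7a11 (from 54.03 ± 13.6 to 147 ± 44.6 CPM; log2 fold change 1.44, SE 0.30, adjusted p = 0.00836). Of 32 bicarbonate, chloride and proton exchangers 6 fell and 0 (0 at an unadjusted p under 0.05, 0 by DESeq2, 0 by limma-voom) rose, 2 fell with both trends removed, and the glucose and monocarboxylate carriers had 0 (3 at an unadjusted p under 0.05, 1 by DESeq2, 0 by limma-voom) rise and 1 fall in 18. Among 26 zinc, copper and manganese carriers with metallothioneins, 3 rose and 2 fell (3 and 1). The copper-exporting ATPase Atp7b fell from 55.8 ± 14.5 to 14.4 ± 1.21 CPM (log2 fold change −1.96, SE 0.27, adjusted p = 0.00214), and the metal-binding metallothionein Mt1 had 23.8, 116 and 179.6 CPM in V1 to V3 and 807, 426 and 315 CPM in L1 to L3 (log2 fold change 2.28, SE 0.58, adjusted p = 0.0177). Of 41 mitochondrial carriers 3 rose and 3 fell (2 and 3). Of 25 organic anion and cation carriers 1 rose and 4 fell (2 and 3). The call lost without 1 library was that of Mt1 (2.35 without V2, 1.805 without L1). Still called but moved over 1.5-fold was Mt1 (2.91 without V3). The 7 amino acid carrier rises numbered 3, 2, 2, 4 and 2 without V1, V2, L1, L2 and L3. The 5 amino acid carrier falls numbered 1, 1, 2, 11 and 9 without V1, V2, L1, T1 and T4. The 3 zinc and copper rises numbered 1 without L1. The 3 mitochondrial carrier rises numbered 1 and 1 without V1 and V2. The 3 mitochondrial carrier falls numbered 1, 1, 1, 1, 6 and 5 without V1, V2, L2, L3, T1 and T4. The 4 organic ion carrier falls numbered 7 without T1. The 6 exchanger falls numbered 2, 2, 3 and 3 without V1, V2, L1 and L2.

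ABC transporters and ion channels were mostly on the lower side. Of 39 ABC transporters 9 fell and 2 rose (5 and 0 with both trends removed). Abcc9, the sulfonylurea receptor subunit of vascular potassium channels, fell from 18.4 ± 6.76 to 4.67 ± 1.62 CPM (log2 fold change −1.98, SE 0.41, adjusted p = 0.00851), and Abca8a at log2 −2.08. Of 58 potassium channel genes 13 fell and 1 rose (9 and 1), including 8 of 24 voltage-gated subunits. Kcnh2, the channel of the cardiac rapid repolarising current, fell from 19.05 ± 5.597 to 4.75 ± 0.952 CPM (log2 fold change −2.003, SE 0.40, adjusted p = 0.00713) and Kcnq1, the slow one, at log2 −1.13, whereas Kcnh7 rose (log2 2.77). Of 43 calcium, TRP and Piezo channel genes 11 fell and 1 rose (3 and 2). Itpr1, a calcium release channel of the endoplasmic reticulum (ENSMUSG00000030102, chromosome 6, 108213096 to 108551109), had 186, 164 and 118 CPM in V1 to V3 and 43.99, 52.6 and 67.5 CPM in L1 to L3 (log2 fold change −1.51, SE 0.28, adjusted p = 0.00539), and all 3 genes of its family fell. Stim1, the calcium sensor that opens store-operated entry, fell at log2 −1.19. In the fit without the GC trend no call was made for Kcnh7 (log2 1.44, adjusted p = 0.0566). The 9 ABC transporter falls numbered 5 without V1. The 13 potassium channel falls numbered 5, 6, 6 and 8 without V1, V2, L1 and L3. The 11 calcium channel falls numbered 5, 5 and 7 without V1, V2 and L1.

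Channels that move salt and water over the lung epithelium showed few calls. In 16 sodium and chloride channels of epithelium 1 fell and 0 (0 at an unadjusted p under 0.05, 0 by DESeq2, 0 by limma-voom) rose. The subunits of the epithelial sodium channel, Scnn1a, Scnn1b and Scnn1g, were at log2 −0.49, −0.58 and −0.403 (adjusted p = 0.4104, 0.199 and 0.359), and the chloride channel Cftr at 0.64 (adjusted p = 0.361). Of 18 aquaporins, connexins and pannexins 4 fell and 0 (0 at an unadjusted p under 0.05, 0 by DESeq2, 0 by limma-voom) rose (3 and 0 with both trends removed). Aqp1, the water channel of endothelium (ENSMUSG00000004655, chromosome 6, 55336432 to 55348555), had 1044, 1000.5 and 869 CPM in V1 to V3 and 356, 417 and 451 CPM in L1 to L3 (log2 fold change −1.25, SE 0.32, adjusted p = 0.0179), and the arterial connexin Gja5 fell at log2 −1.27. With both trends removed no call was made for Gja5 (log2 −0.87, adjusted p = 0.0595). A call depended on single libraries for Aqp1 (−1.19 without V1, −1.24 without V2, −1.16 without L1) and Gja5 (−1.06 without V1). The 4 falls in this list numbered 0, 1 and 2 without V1, V2 and L2.

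**Figure D3:**
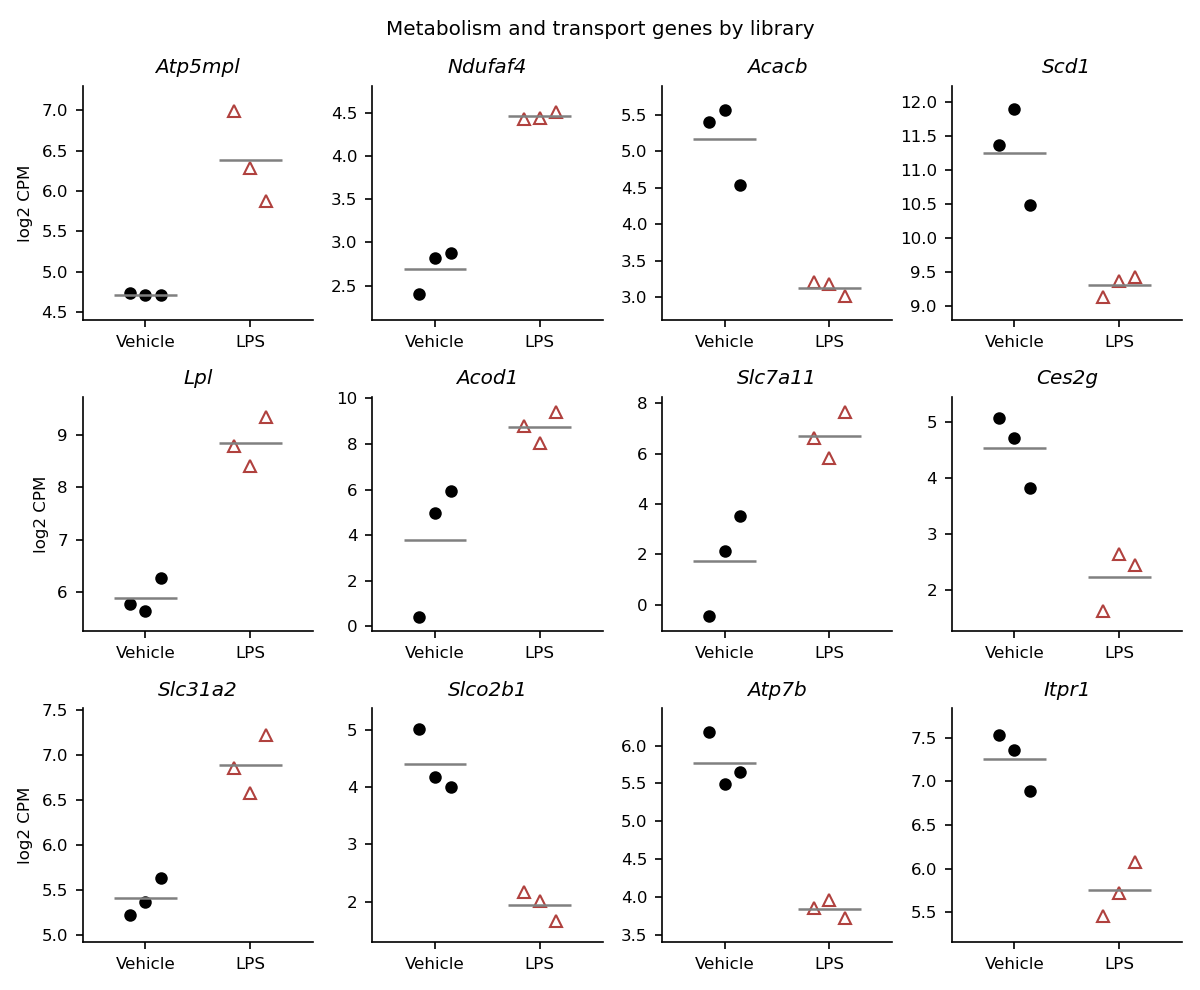
Level of 12 genes of metabolism and transport in each library, as log2 CPM. Filled circles are V1 to V3, open triangles L1 to L3, and short bars the group means. In all 12 genes every LPS library lies on the same side of every Vehicle library. The 12 were picked from called genes, and 49.8% of all genes tested show no overlap either.

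Receptors for circulating hormones and vasoactive peptides were mostly lower among the calls. Of 31 adrenergic, cholinergic and peptide hormone receptors 10 fell and 1 rose, with a median of −0.78, and 11 fell and 0 rose with both trends removed. Glp1r, the receptor of the incretin GLP-1 (ENSMUSG00000024027, chromosome 17, 30901817 to 30940791), had 74.4, 70.8 and 44.9 CPM in V1 to V3 and 1.34, 5.54 and 9.28 CPM in L1 to L3 (log2 fold change −3.55, SE 0.76, adjusted p = 0.00922). Aplnr, the apelin receptor of general capillary endothelium (ENSMUSG00000044338, chromosome 2, 85136225 to 85139923), had 112, 83.6 and 43.8 CPM in V1 to V3 and 4.69, 18.02 and 6.11 CPM in L1 to L3 (log2 fold change −3.05, SE 0.48, adjusted p = 0.00316). The groups stood apart in both, and V3 was the lowest Vehicle library in both. Npr1, the receptor of atrial natriuretic peptide, fell from 168 ± 35.8 to 64.5 ± 2.99 CPM (log2 fold change −1.38, SE 0.26, adjusted p = 0.006204), the alpha-1 adrenergic receptors Adra1a and Adra1d at log2 −1.84 and −1.67, and Adrb1, the beta-1 receptor, at log2 −1.21. The call lost without 1 library was that of Adra1d (−1.46 without V2). Still called but moved over 1.5-fold were Glp1r (−4.18 without L3) and Aplnr (−3.88 without L2).

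Receptor tyrosine kinases, which bind growth factors, gave falls and no rise. Among 37 receptor tyrosine kinases 17 fell and 0 (0 at an unadjusted p under 0.05, 0 by DESeq2, 0 by limma-voom) rose (median −0.79), and 5 fell with both trends removed. Kit, the stem cell factor receptor of capillary endothelium and mast cells (ENSMUSG00000005672, chromosome 5, 75574916 to 75656722), had 328, 328 and 257 CPM in V1 to V3 and 89.3, 107 and 153 CPM in L1 to L3 (log2 fold change −1.39, SE 0.24, adjusted p = 0.00409), while its ligand Kitl rose from 32.8 ± 8.003 to 211 ± 40.8 CPM (log2 fold change 2.68, SE 0.35, adjusted p = 0.00196). Fgfr4, an FGF receptor, fell from 42.1 ± 20.7 to 8.704 ± 4.61 CPM (log2 fold change −2.27, SE 0.43, adjusted p = 0.00576), and Fgfr1, Erbb3 and Kdr, the main VEGF receptor, at log2 −1.09, −1.21 and −1.42. Of 18 Eph receptors and ephrins 6 fell and 0 (0 at an unadjusted p under 0.05, 0 by DESeq2, 0 by limma-voom) rose, and of 31 semaphorins, plexins and neuropilins 9 fell and 1 rose (3 and 3 fell with both trends removed). They included Ephb6 (log2 −1.85) and the semaphorin receptor Plxna1 (−1.68). Under the correction for GC and length no call was made for Fgfr1 (log2 −0.45, adjusted p = 0.0719) and Erbb3 (log2 −0.797, adjusted p = 0.0533). The 17 receptor tyrosine kinase falls numbered 6, 6 and 10 without V1, V2 and L1. The 6 Eph and ephrin falls numbered 2 and 3 without V1 and L1. The 9 semaphorin and plexin falls numbered 5, 5 and 5 without V1, V2 and L1.

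The Wnt list likewise gave falls and no rise. Among 39 frizzled receptors, LRP co-receptors, Wnt ligands and modulators 17 fell and 0 (0 at an unadjusted p under 0.05, 0 by DESeq2, 0 by limma-voom) rose (median −1.16), 12 of 39 with both trends removed, and 5 of 8 frizzled receptors fell. Fzd7 (ENSMUSG00000041075, chromosome 1, 59482424 to 59486955) had 101, 81.9 and 52.9 CPM in V1 to V3 and 23.03, 26.2 and 23.7 CPM in L1 to L3 (log2 fold change −1.69, SE 0.25, adjusted p = 0.00263). Fzd2 and Fzd8 fell at log2 −1.96 and −1.24, and Axin2, a target and feedback inhibitor of the pathway, fell from 44.8 ± 7.55 to 20.3 ± 3.17 CPM (log2 fold change −1.14, SE 0.22, adjusted p = 0.00606). Of 32 TGF-beta and BMP receptors with their extracellular inhibitors 13 fell and 1 rose (6 and 1). Ltbp4, which stores latent TGF-beta in elastic matrix, fell from 1142 ± 454 to 186 ± 44.9 CPM (log2 fold change −2.62, SE 0.38, adjusted p = 0.00237), and so did the other 3 latent TGF-beta binding proteins. The 1 rise was Bmpr2, the BMP receptor mutated in heritable pulmonary hypertension (log2 1.53). With the GC trend removed no call was made for Bmpr2 (log2 0.32, adjusted p = 0.406). The 17 Wnt falls numbered 10, 9 and 11 without V1, V2 and L1. The 13 TGF-beta and BMP falls numbered 6, 7, 8, 7 and 8 without V1, V2, L1, L2 and L3.

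Most immune receptors rose. Of 28 inhibitory and activating receptors of leukocytes 16 rose and 1 fell, with a median of 1.18 (11 and 2 with both trends removed). Cd80 (ENSMUSG00000075122, chromosome 16, 38455561 to 38496335) had 1.35, 3.26 and 4.59 CPM in V1 to V3 and 24.5, 19.5 and 25.9 CPM in L1 to L3 (log2 fold change 2.92, SE 0.46, adjusted p = 0.00301). Cd274, the checkpoint ligand PD-L1 (ENSMUSG00000016496, chromosome 19, 29367455 to 29388095), had 37.7, 87.1 and 137 CPM in V1 to V3 and 356, 319.9 and 613 CPM in L1 to L3 (log2 fold change 2.302, SE 0.52, adjusted p = 0.0111). In both genes V1 was the lowest and V3 the highest Vehicle library, and every LPS library lay above V3. Siglece, an inhibitory sialic acid receptor of myeloid cells, rose by log2 2.49, and Tnfrsf9, the costimulatory receptor 4-1BB, by log2 2.43. Receptors for lipid mediators split, with 10 of 34 rising and 4 falling (5 and 2). Fpr2, a formyl peptide receptor of neutrophils (ENSMUSG00000052270, chromosome 17, 17887824 to 17893952), had 12.9, 14.6 and 30.9 CPM in V1 to V3 and 145, 86.02 and 189 CPM in L1 to L3 (log2 fold change 2.84, SE 0.55, adjusted p = 0.006596), and Hcar2, the niacin and butyrate receptor, rose from 29.4 ± 30.2 to 273 ± 130.1 CPM (log2 fold change 3.21, SE 0.76, adjusted p = 0.0129). No call was left without 1 library for Hcar2 (2.95 without V2). A shift over 1.5-fold without loss of the call was seen for Hcar2 (4.48 without V3). The 16 immune receptor rises numbered 8, 6 and 10 without V1, V2 and L3. The 10 lipid mediator receptor rises numbered 5 and 3 without V1 and V2. The 4 lipid mediator receptor falls numbered 1, 0, 0, 1, 1, 7 and 2 without V1, V2, L1, L2, L3, T1 and T3.

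Other cell-surface families were mixed. Msr1, the macrophage scavenger receptor SR-A (ENSMUSG00000025044, chromosome 8, 39581685 to 39642673), had 0.899, 7.53 and 16.9 CPM in V1 to V3 and 89.1, 73.9 and 155 CPM in L1 to L3 (log2 fold change 3.65, SE 0.75, adjusted p = 0.00822), while Scara3, a scavenger receptor of stromal cells, fell from 18.7 ± 3.37 to 2.55 ± 0.162 CPM (log2 fold change −2.87, SE 0.56, adjusted p = 0.00672). In that list 3 of 21 rose and 6 fell (2 and 5). Adora2a, the adenosine receptor that restrains leukocytes, rose from 19.5 ± 4.49 to 48.2 ± 10.4 CPM (log2 fold change 1.31, SE 0.26, adjusted p = 0.00695), 1 of 5 rises and 2 falls among 16 purine receptors (2 and 1). Among 68 adhesion and orphan G protein-coupled receptors 13 fell and 4 rose (7 and 3 with both trends removed). Adgra3, an adhesion receptor, fell at log2 −1.11 and Gpr65, a proton-sensing receptor of leukocytes, rose by log2 2.12. Of 29 integrins 4 rose and 5 fell (13.8% and 17.2%, against 14.2% and 10.7% of all genes), and 3 and 3 with both trends removed. Still called but moved over 1.5-fold was Msr1 (4.66 without V3). The 13 adhesion and orphan receptor falls numbered 6, 6, 3, 7 and 8 without V1, V2, L1, L2 and L3. The 4 adhesion and orphan receptor rises numbered 2 and 1 without V1 and V2. The 6 scavenger receptor falls numbered 1, 1, 2, 3, 3 and 10 without V1, V2, V3, L1, L2 and T1. The 3 scavenger receptor rises numbered 1, 1 and 1 without V1, V2 and L1. The 5 purine receptor rises numbered 2, 2, 3, 3 and 3 without V1, V2, L1, L3 and T3. The 4 integrin rises numbered 1, 2, 2 and 2 without V1, V2, V3 and L1. The 5 integrin falls numbered 3, 3, 2 and 3 without V1, V2, L1 and L2.

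**Figure D4:**
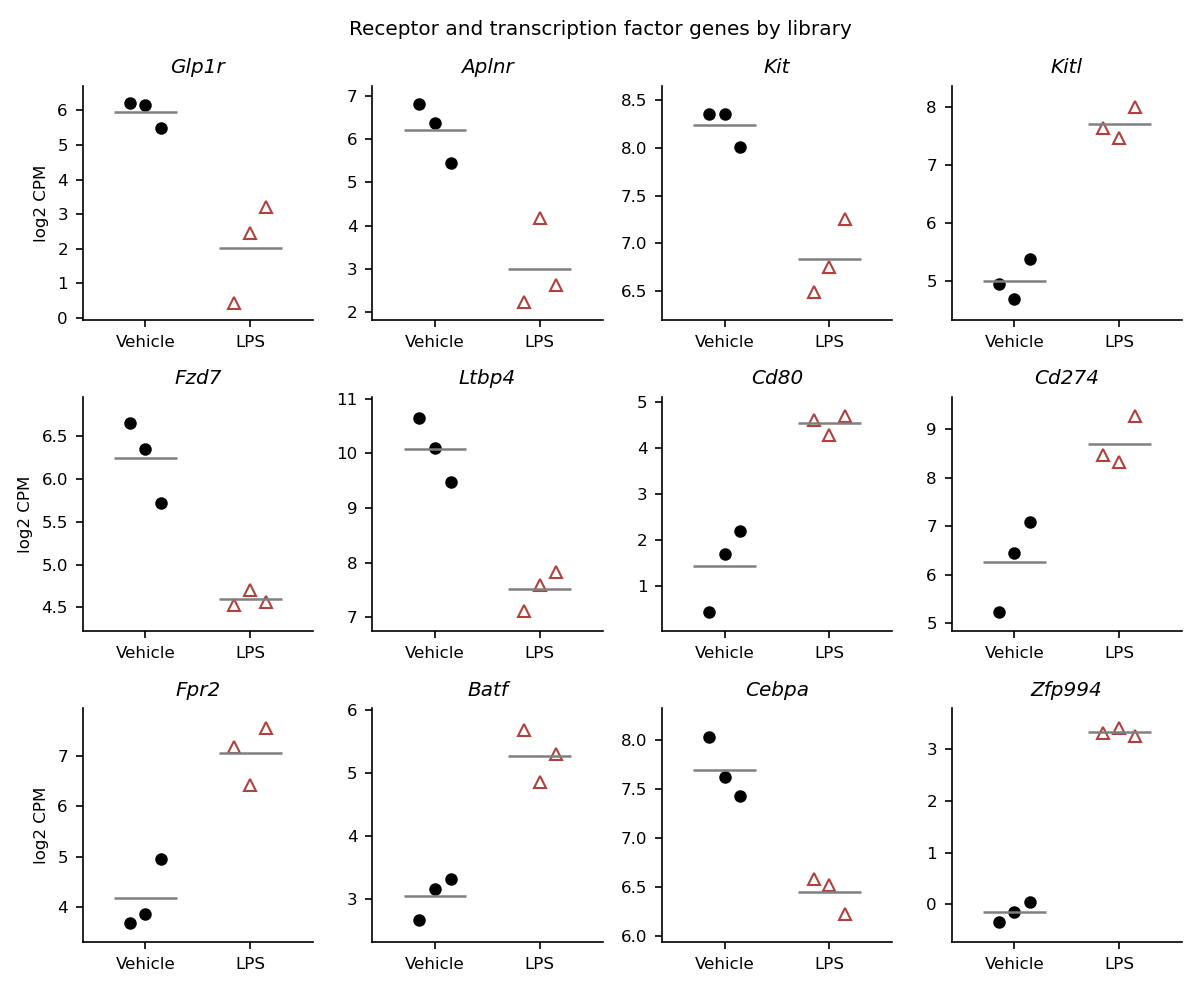
Level of 12 receptor and transcription factor genes in each library, as log2 CPM. Filled circles are V1 to V3, open triangles L1 to L3, and short bars the group means. In all 12 genes every LPS library lies on the same side of every Vehicle library. The 12 were picked from called genes, and 49.8% of all genes tested show no overlap either.

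The NF-kB and AP-1 lists gave more rises than falls, and other factors of inflammation were split. Of 11 NF-kB and I-kB members 7 rose and 0 (0 at an unadjusted p under 0.05, 0 by DESeq2, 0 by limma-voom) fell, with a median of 0.96 (9 rose with both trends removed). Of 29 AP-1, ATF, MAF and EGR factors 8 rose and 1 fell (10 and 0). Batf, a bZIP factor of lymphoid and myeloid cells (ENSMUSG00000034266, chromosome 12, 85686669 to 85709087), had 6.35, 8.91 and 9.94 CPM in V1 to V3 and 51.2, 28.9 and 39.3 CPM in L1 to L3 (log2 fold change 2.24, SE 0.37, adjusted p = 0.003505). Atf4, the effector of the integrated stress response, rose from 187 ± 47.1 to 468 ± 121 CPM (log2 fold change 1.32, SE 0.27, adjusted p = 0.00814), and Maff, a small MAF protein, by log2 1.29. Of 10 C/EBP and PAR bZIP factors 4 rose and 3 fell: Cebpb, the factor of acute-phase genes, rose from 231 ± 89.6 to 648 ± 302 CPM (log2 1.49, adjusted p = 0.0194), and Cebpa, the factor of resting myeloid and type 2 cells (ENSMUSG00000034957, chromosome 7, 35119293 to 35121928), had 262, 198 and 172 CPM in V1 to V3 and 96.1, 92.1 and 74.98 CPM in L1 to L3 (log2 fold change −1.26, SE 0.203, adjusted p = 0.00319). With both trends removed 4 of the C/EBP and PAR bZIP factors rose and 1 fell. Of 9 interferon regulatory factors 2 rose and 1 fell (3 and 1), with Irf1 at log2 1.36 and Irf7 at 2.13 against Irf4 at −1.75. Of 7 STAT factors 1 rose and 2 fell (1 and 0). Klf6, an early-response zinc finger factor, rose from 94.9 ± 39.9 to 355 ± 61.7 CPM (log2 fold change 1.905, SE 0.299, adjusted p = 0.00303). Of 19 KLF and SP factors 2 rose and 1 fell (2 and 0). Of 24 ETS factors 4 rose and 2 fell (3 and 0). A call depended on single libraries for Cebpb (1.28 without V1, 1.42 without V2, 1.07 without L1), Irf1 (1.16 without V1, 1.39 without V2, 1.13 without L1) and Irf7 (1.72 without V1, 2.26 without V3, 2.02 without L1, 2.04 without L2). The 4 C/EBP and PAR bZIP rises numbered 2, 2 and 2 without V1, V2 and L1. The 3 C/EBP and PAR bZIP falls numbered 1, 1, 1, 1 and 1 without V1, V2, L1, L2 and L3. The 4 ETS rises numbered 0, 1, 1, 1 and 1 without V1, V2, L1, L2 and L3. The 7 NF-kB rises numbered 1, 2, 4 and 2 without V1, V2, L1 and L3. The 8 AP-1 and ATF rises numbered 5 and 5 without V1 and V2.

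Forkhead, SOX and nuclear receptor genes gave more falls than rises, and other developmental families were mixed or gave few calls. Of 29 forkhead factors 10 fell and 2 rose (median −0.62; 4 and 1 with both trends removed), and all 4 FOXO genes fell. Foxf2, a mesenchymal factor (ENSMUSG00000038402, chromosome 13, 31625816 to 31631403), had 70.997, 70.1 and 49.97 CPM in V1 to V3 and 31.7, 30.1 and 20.2 CPM in L1 to L3 (log2 fold change −1.22, SE 0.25, adjusted p = 0.00745). Foxo1, which insulin signalling excludes from the nucleus, was at log2 −1.14 and Foxo6 at −1.93. Of 13 SOX factors 5 fell and 0 (0 at an unadjusted p under 0.05, 0 by DESeq2, 0 by limma-voom) rose (3 and 0), among them Sox12 (log2 −1.35) and Sox4 (−2.60), though 0.546 of the exon bases of Sox4 lie under another annotated gene. Of 38 nuclear receptors 8 fell and 2 rose (3 and 4). Besides Ppara they included the thyroid hormone receptor Thra, which fell from 125 ± 21.7 to 61.5 ± 14.1 CPM (log2 fold change −1.03, SE 0.21, adjusted p = 0.00753), and Rora, a factor of innate lymphoid cells and of the clock, which rose from 11.7 ± 1.68 to 36.5 ± 1.498 CPM (log2 fold change 1.64, SE 0.26, adjusted p = 0.00316). Of 15 HOX genes 0 (0 at an unadjusted p under 0.05, 0 by DESeq2, 0 by limma-voom) rose and 2 fell (0 and 2). Of 16 T-box, GATA and HAND factors 0 (0 at an unadjusted p under 0.05, 0 by DESeq2, 0 by limma-voom) rose and 1 fell (0 and 1). Of 36 homeobox factors of lung and mesenchyme 2 rose and 4 fell (3 and 1). Of 40 basic helix-loop-helix factors 5 rose and 4 fell (3 and 4). Of 19 SMAD, YAP and TEAD genes 1 rose and 1 fell (0 and 1). After removal of both trends no call was made for Foxo1 (log2 −0.64, adjusted p = 0.0866) and Sox12 (log2 −0.92, adjusted p = 0.0504). Leaving out 1 library ended the call of Foxo1 (−1.002 without V1, −1.11 without V2, −1.002 without L2) and Sox12 (−1.201 without V1). A shift over 1.5-fold without loss of the call was seen for Sox4 (−3.46 without L3). The 10 forkhead falls numbered 3, 3, 4 and 4 without V1, V2, L1 and L2. The 4 homeobox falls numbered 1, 2, 2 and 1 without V1, V2, L1 and L2. The 5 helix-loop-helix rises numbered 1, 1, 3 and 3 without V1, V2, L1 and L2. The 4 helix-loop-helix falls numbered 1, 1, 2, 1 and 9 without V1, V2, L1, L3 and T1. The 5 SOX falls numbered 1, 2 and 2 without V1, V2 and L1. The 8 nuclear receptor falls numbered 2, 2, 4, 3, 5, 5 and 5 without V1, V2, L1, L2, L3, T2 and T3.

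In clock-controlled genes V3 stood apart from V1 and V2. Per3, a core clock repressor, had 85.7, 47.5 and 13.98 CPM in V1 to V3 and 10.4, 8.81 and 11.1 CPM in L1 to L3 (log2 fold change −2.28, SE 0.56, adjusted p = 0.0153). Dbp, an output factor of the clock, had 168, 97.4 and 1.91 CPM in V1 to V3 and 2.99, 2.203 and 3.61 CPM in L1 to L3 (log2 fold change −4.92, SE 1.63, adjusted p = 0.0470), so V3 lay below every LPS library. Nr1d1, the repressor REV-ERB alpha, had 256, 215 and 12.1 CPM in V1 to V3 and 6.702, 3.897 and 18.2 CPM in L1 to L3 and did not pass (adjusted p = 0.0544). Of 19 clock genes 4 fell and 2 rose, 7 and 3 without V3, and 0 and 1 with both trends removed. The labels give no time of day. Under the GC correction no call was made for Dbp (log2 −4.56, adjusted p = 0.0704), nor with both trends removed for Per3 (log2 −1.68, adjusted p = 0.0621). Calls lost without 1 library were those of Per3 (−1.59 without V1, −2.302 without L1, −2.19 without L2) and Dbp (−4.06 without V1, −4.86 without V2, −4.94 without L1, −4.75 without L2, −5.07 without L3). The 4 clock falls numbered 0, 1, 7, 0, 0 and 1 without V1, V2, V3, L1, L2 and L3.

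The rises of zinc finger genes lay almost all among GC-poor genes. Of 356 Zfp genes tested 105 rose (29.5%, against 14.2% of all genes) and 26 fell (7.303%, against 10.7%). The GC-poorest tertile held 210 of the 356 genes and 104 of the 105 rises. Among all 5710 genes of that tertile 1577 rose. With the GC trend removed 55 Zfp genes rose and 23 fell, and with both trends removed 56 and 11, so the median went from 0.27 to 0.05 and 0.11. Over all genes 9.56% rose and 6.1% fell with both trends removed. Besides Zfp994, Zfp281, a factor of stem cells, rose from 8.76 ± 3.02 to 60.5 ± 15.9 CPM (log2 fold change 2.79, SE 0.28, adjusted p = 0.00118), and Zfp930 and Zfp120 by log2 3.43 and 3.13; with the GC trend removed their values were 2.39, 2.504 and 1.71. The 105 zinc finger rises numbered 68 and 69 without V1 and V2. The 26 zinc finger falls numbered 9, 14 and 16 without V1, V2 and L1.

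More stromal markers fell than rose. Of 37 adventitial fibroblast markers 18 fell and 5 rose, with a median of −1.23, and 20 fell and 2 rose with both trends removed. Col14a1 (ENSMUSG00000022371, chromosome 15, 55307750 to 55520803), a fibril-associated collagen, had 121, 72.2 and 45.8 CPM in V1 to V3 and 2.01, 5.59 and 5.61 CPM in L1 to L3 (log2 fold change −4.17, SE 0.54, adjusted p = 0.00196), and Fbln1, a matrix glycoprotein, fell from 125 ± 79.9 to 15.1 ± 3.33 CPM (log2 fold change −3.04, SE 0.44, adjusted p = 0.002398). Ly6a (Sca-1), used to sort these cells and inducible by interferon, rose by log2 1.55. Of 36 alveolar fibroblast markers 12 fell and 2 rose (12 and 2). Npnt, the integrin ligand nephronectin (ENSMUSG00000040998, chromosome 3, 132881745 to 132950291), had 1274, 858 and 554 CPM in V1 to V3 and 134.2, 327 and 159 CPM in L1 to L3 (log2 fold change −2.11, SE 0.42, adjusted p = 0.006897), Gpc3, a heparan sulfate glypican, fell from 144 ± 55.7 to 38.7 ± 10.5 CPM (log2 fold change −1.89, SE 0.34, adjusted p = 0.00486), and Tcf21, a defining factor of these cells, was at −0.78 (adjusted p = 0.0641). Of 19 myofibroblast and lipofibroblast markers 3 rose and 5 fell (3 and 7). Still called but moved over 1.5-fold was Fbln1 (−2.43 without V1). The 5 adventitial rises numbered 1, 1, 3 and 2 without V1, V2, L1 and L2. The 3 myofibroblast and lipofibroblast rises numbered 1 and 1 without V1 and V2. The 5 myofibroblast and lipofibroblast falls numbered 2, 1, 2 and 3 without V1, V2, L1 and L2. The 12 alveolar fibroblast falls numbered 7 and 7 without V1 and L3.

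Of 34 smooth muscle markers 8 fell and 1 rose, of 27 pericyte markers 7 fell and 1 rose, and of 26 mesothelial markers 8 fell and 0 (0 at an unadjusted p under 0.05, 0 by DESeq2, 0 by limma-voom) rose (7, 4 and 7 fell with both trends removed). Myh11, the smooth muscle myosin (ENSMUSG00000018830, chromosome 16, 14194535 to 14291372), had 245, 377 and 340.1 CPM in V1 to V3 and 61.5, 119 and 93.2 CPM in L1 to L3 (log2 fold change −1.81, SE 0.34, adjusted p = 0.00550), while Acta2, smooth muscle actin, was at log2 −0.91 (adjusted p = 0.0686). Notch3, the Notch receptor of mural cells, fell from 255 ± 26.7 to 66.6 ± 22.6 CPM (log2 fold change −1.94, SE 0.34, adjusted p = 0.00451). Upk1b, a uroplakin of mesothelium, fell from 32.4 ± 9.46 to 9.66 ± 5.13 CPM (log2 fold change −1.75, SE 0.36, adjusted p = 0.008405), and the mesothelial markers Msln and Upk3b were at −0.62 and −3.17 (adjusted p = 0.211 and 0.07297). The 8 smooth muscle falls numbered 1, 4, 3, 5 and 13 without V2, V3, L1, L3 and T1. The 7 pericyte falls numbered 4 without V2. The 8 mesothelial falls numbered 4, 5 and 5 without V1, V2 and L1.

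Endothelial markers gave more falls than rises. Of 22 general capillary markers 8 fell and 3 rose, of 28 arterial and venous markers 10 fell and 1 rose, and of 24 markers of aerocytes, the capillary cells over alveolar walls, 2 fell and 0 (0 at an unadjusted p under 0.05, 0 by DESeq2, 0 by limma-voom) rose (4, 6 and 4 fell with both trends removed). As counted the falls were 36.4%, 35.7% and 8.33% of these lists, against 10.7% of all genes. In the capillary list Aplnr and Kit fell while Kitl and Lpl rose. Among vessel markers Fbln5, an elastic fibre protein, fell from 151 ± 62.7 to 34.9 ± 15.5 CPM (log2 fold change −2.12, SE 0.43, adjusted p = 0.00765) and Dll4, the arterial Notch ligand, at log2 −1.28, whereas Bst1, a venous marker in that list, rose. The aerocyte markers Car4 and Ednrb were at log2 0.17 and −0.78 (adjusted p = 0.709 and 0.0518). Of 20 markers of lymphatic endothelium 1 rose and 3 fell (1 and 1). The 8 capillary falls numbered 3, 3 and 4 without V1, V2 and L1. The 3 lymphatic falls numbered 1, 1 and 5 without V1, V2 and T1. The 10 arterial and venous falls numbered 3, 5 and 6 without V1, V2 and L2. The 2 aerocyte falls numbered 1, 5, 6 and 7 without V2, V3, L2 and T1.

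In the fit of all 10 libraries alveolar type 1 markers gave no call, and type 2 markers gave more falls than rises. Of 24 alveolar type 1 markers 0 (1 at an unadjusted p under 0.05, 1 by DESeq2, 0 by limma-voom) rose and 0 (3 at an unadjusted p under 0.05, 2 by DESeq2, 0 by limma-voom) fell (median −0.48; without T1 6 fell and 2 rose). Ager, their most used marker, had 2019, 1488 and 1394 CPM in V1 to V3 and 2992, 2171 and 969 CPM in L1 to L3 (log2 0.32, adjusted p = 0.718). Of 27 alveolar type 2 markers 8 fell and 2 rose (5 and 0 with both trends removed, 12 and 4 without T1). Lamp3, a lysosomal protein of type 2 and mature dendritic cells, rose from 87.5 ± 30.9 to 533 ± 51.6 CPM (log2 2.61, adjusted p = 0.008201). Abca3, the phospholipid transporter of lamellar bodies (ENSMUSG00000024130, chromosome 17, 24351950 to 24410201), had 629.9, 505 and 489.6 CPM in V1 to V3 and 59.7, 155 and 191 CPM in L1 to L3 (log2 fold change −2.002, SE 0.55, adjusted p = 0.02295), and Lgi3 fell from 197 ± 80.6 to 46.9 ± 24.2 CPM (log2 fold change −2.07, SE 0.47, adjusted p = 0.0115). The surfactant protein genes were spread: Sftpc had 15167, 9913 and 7793 CPM in V1 to V3 and 3282, 5973 and 1282 CPM in L1 to L3 (log2 −1.64, adjusted p = 0.0953), whereas Sftpd was at log2 1.09 (adjusted p = 0.1103), and neither passed although their groups did not overlap. Under the correction for GC and length no call was made for Lamp3 (log2 1.23, adjusted p = 0.0594) and Abca3 (log2 −1.42, adjusted p = 0.06901). No call was left without 1 library for Abca3 (−1.88 without V1, −1.65 without L1, −2.11 without L2). The 8 type 2 falls numbered 2, 5, 3 and 5 without V1, V2, L1 and L2.

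Of 28 club and secretory markers 4 fell and 1 rose (5 and 1), and of 39 ciliated markers 3 fell and 1 rose (1 and 0). As counted the falls were 14.3% and 7.69% of these lists, against 10.7% of all genes. Of 13 basal and neuroendocrine markers 0 (0 at an unadjusted p under 0.05, 0 by DESeq2, 0 by limma-voom) rose and 1 fell (0 and 0). Pon1, a lactonase made by club cells, fell from 31.3 ± 16.98 to 5.47 ± 0.0952 CPM (log2 fold change −2.52, SE 0.58, adjusted p = 0.0123). Scgb1a1, the club cell secretoglobin, had 15268, 11476 and 9436 CPM in V1 to V3 and 26343, 11654 and 8565 CPM in L1 to L3 (log2 0.36, adjusted p = 0.563), so the groups overlapped, and Foxj1, the master factor of ciliated cells, was at log2 −1.21 (adjusted p = 0.242). A call depended on single libraries for Pon1 (−2.17 without V1). The 4 club cell falls numbered 0, 2, 2, 2, 2 and 8 without V1, V2, L1, L2, L3 and T1. The 3 ciliated falls numbered 1, 0, 1, 1 and 8 without V1, V2, L1, L2 and T1.

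**Figure D5:**
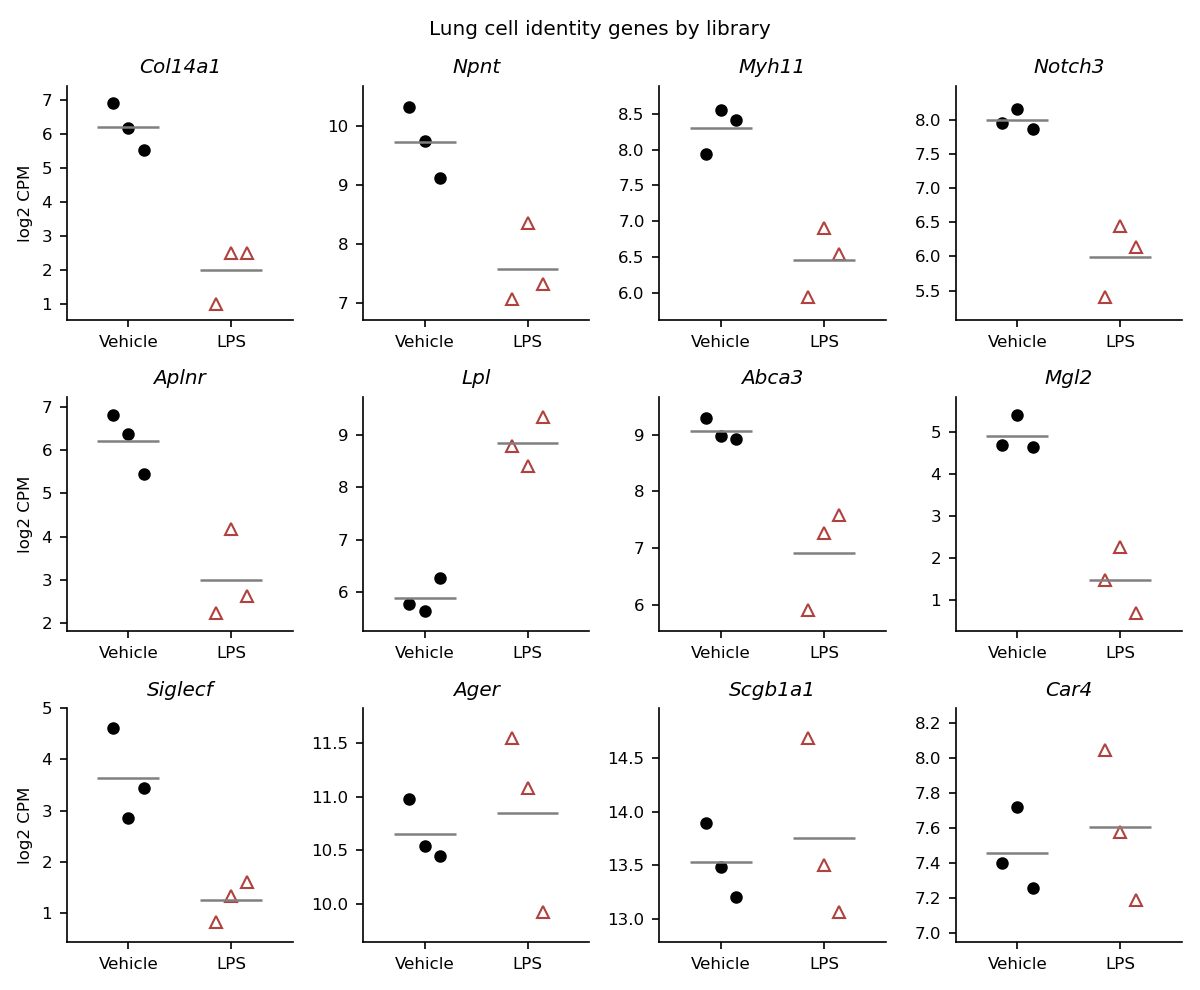
Level of 12 marker genes of lung cell types in each library, as log2 CPM; filled circles are V1 to V3, open triangles L1 to L3, and short bars the group means. Col14a1, Npnt, Myh11, Notch3, Aplnr, Abca3, Mgl2 and Siglecf lie lower in every LPS library than in any Vehicle library, while Ager, Scgb1a1 and Car4 overlap and Lpl lies higher. Of all genes tested 49.8% show no overlap.

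Alveolar macrophage and dendritic cell markers were called in both directions. Siglecf, the sialic acid receptor of alveolar macrophages and eosinophils, had 24.5, 7.21 and 10.9 CPM in V1 to V3 and 1.77, 2.54 and 3.05 CPM in L1 to L3 (log2 fold change −2.53, SE 0.59, adjusted p = 0.0126), and Mgl2, a lectin of conventional dendritic cells and interstitial macrophages (ENSMUSG00000040950, chromosome 11, 70130329 to 70137550), had 26.1, 42.4 and 25.2 CPM in V1 to V3 and 2.803, 4.801 and 1.61 CPM in L1 to L3 (log2 fold change −3.34, SE 0.42, adjusted p = 0.00196). Il1rn, the interleukin-1 receptor antagonist in the alveolar macrophage list, rose by log2 3.11. Marco, a preset marker of lung, lay the other way from Siglecf, at 16.2, 22.04 and 41.5 CPM in V1 to V3 and 115, 82.6 and 65.2 CPM in L1 to L3. In all 4 of 31 alveolar macrophage markers rose and 3 fell (3 and 5), and of 30 dendritic cell markers 4 rose and 5 fell (4 and 5). As counted these are 12.9% and 9.68% of the first list and 13.3% and 16.7% of the second, against 14.2% and 10.7% of all genes. In the second Tcf4, the factor of plasmacytoid cells, rose from 38.4 ± 8.56 to 175 ± 29.3 CPM (log2 fold change 2.19, SE 0.22, adjusted p = 0.00108) and Itgae, the integrin CD103, fell from 13.3 ± 4.05 to 3.83 ± 2.06 CPM (log2 fold change −1.79, SE 0.38, adjusted p = 0.00936). Neutrophil markers had 12 of 38 rise and 0 (0 at an unadjusted p under 0.05, 0 by DESeq2, 0 by limma-voom) fall (median 1.58; 6 rose with both trends removed), led by Wfdc21, a secreted antiprotease-like protein (log2 2.94). Of 32 interstitial macrophage and monocyte markers 6 rose and 2 fell (3 and 2). Of 11 mast cell, basophil and eosinophil markers 1 rose and 2 fell (1 and 3). Of 24 platelet and megakaryocyte markers 5 rose and 1 fell (3 and 0). Of 21 erythroid markers 1 rose and 4 fell (1 and 0). The call lost without 1 library was that of Siglecf (−1.88 without V1). Still called but moved over 1.5-fold was Il1rn (4.11 without V3). The 3 alveolar macrophage falls numbered 1, 5 and 8 without V1, V3 and T1. The 4 dendritic cell rises numbered 2 and 2 without V1 and V2. The 6 monocyte rises numbered 3, 2 and 10 without V1, V2 and T1. The 5 platelet rises numbered 3 and 3 without V1 and V2. The 4 erythroid falls numbered 0, 0, 2, 0, 1, 1 and 2 without V1, V2, L1, L2, T2, T3 and T4. The 12 neutrophil rises numbered 7, 6, 7 and 21 without V1, V2, L1 and T1.

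Mki67, the proliferation antigen, rose from 7.47 ± 3.19 to 45.5 ± 14.4 CPM (log2 fold change 2.61, SE 0.401, adjusted p = 0.00288), while most of its list did not pass. Of 38 proliferating-cell genes 2 rose and 6 fell (median −0.498, with 1 and 3 after removal of both trends), with Top2a, a topoisomerase of dividing cells, at log2 −0.19 (adjusted p = 0.766). Ccnb1 was at −1.53, with 0.359 of its 50-base windows repeated elsewhere among gene models. Of 34 T cell markers 3 rose and 0 (2 at an unadjusted p under 0.05, 0 by DESeq2, 0 by limma-voom) fell, and of 32 B and plasma cell markers 1 rose and 5 fell. With both trends removed the T cell list had 0 rises and 1 fall, and the B and plasma cell list 0 rises and 4 falls. Of 32 NK cell and ILC markers 4 rose and 0 (1 at an unadjusted p under 0.05, 0 by DESeq2, 0 by limma-voom) fell (2 and 0). Of 19 nerve and Schwann cell markers 1 rose and 4 fell (0 and 1). Leaving out 1 library ended the call of Ccnb1 (−1.39 without L1). The 4 NK cell rises numbered 1, 2, 2 and 2 without V1, V3, L1 and L2. The 4 nerve falls numbered 1, 2, 2 and 2 without V1, V2, L1 and L2. The 6 proliferation falls numbered 1, 1, 1, 0, 2, 10 and 3 without V1, V2, V3, L1, L3, T1 and T4. The 5 B cell falls numbered 0, 0, 0, 0 and 3 without V1, V2, L1, L3 and T3. The 3 T cell rises numbered 0 and 0 without V1 and V2.

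Lists of other tissues and controls show what else differed. Of 24 cardiac genes 1 rose and 2 fell, and of 12 genes of skeletal muscle, fat, thymus, thyroid and oesophagus 1 fell, Plin1. Of the 4 haemoglobin genes 0 (0 at an unadjusted p under 0.05, 0 by DESeq2, 0 by limma-voom) rose and 0 (0 at an unadjusted p under 0.05, 0 by DESeq2, 0 by limma-voom) fell, with a median of 0.06 and 0.153% to 0.479% of counts in the 6 libraries. Of 24 commonly used reference genes 7 rose and 1 fell (4 and 3 with both trends removed): B2m, the light chain of MHC class I, was at log2 1.59, and Polr2a, the largest subunit of RNA polymerase II, fell from 282 ± 45.8 to 124 ± 28.8 CPM (log2 fold change −1.18, SE 0.24, adjusted p = 0.00704). With the GC trend removed no call was made for B2m (log2 0.82, adjusted p = 0.108). The 7 reference gene rises numbered 2, 3 and 3 without V1, V2 and L1.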

How the data were processed

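The authors deposited raw read counts per gene for 10 whole-lung libraries. Per the labels' protocols, total RNA was taken with Trizol and made into Illumina libraries, and the submitters' processing notes name CASAVA, HISAT2, HTSeq 0.6.0 and GRCm38 (mm10). Strandedness is not given in the sources used here. Groups came from the treatment label.

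The counts were tested with edgeR 4.0.16 (robust quasi-likelihood, TMM scaling, filterByExpr) in R 4.3.3, in 1 fit of 3 groups with 7 residual degrees of freedom; LPS was compared with Vehicle, and a call is a Benjamini-Hochberg adjusted p under 0.05 over 17139 genes. CPM are TMM-scaled. GC content and exon length came from GENCODE M21; their trends were removed by loess (span 0.3) in each library. DESeq2 1.42.0 and limma 3.58.1 (voom) were alternatives. The fit was tested on simulated counts.

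The 98 gene lists and the comparison were chosen with earlier results of these data known. Named genes are the 10 largest rises and falls of called protein-coding genes without overlap and at 10 CPM or more, outside cytokine symbols, then up to 5 called members of each list by adjusted p at 1 CPM or more, then preset anchor genes. Not every gene so chosen is reported here. The values of CPM ± SD cover 3 libraries, with depths of 17505995 to 18374461 counts.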

Additional observations from a re-analysis of the deposited data

How the results depend on the processing

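The counts of 2437 rises and 1836 falls moved by over 1.5 times under some choices. At an adjusted p under 0.01 there were 831 rises and 415 falls, and at 0.05 with at least a 2-fold change 1845 and 1169. With the trends of GC and length removed, 1639 genes rose and 1045 fell. Leaving out 1 of the 10 libraries gave 1012 to 2975 rises and 640 to 2449 falls. The highest counts, 2975 and 2449, came without T1. A fit of Vehicle and LPS alone called 2695 rises and 2182 falls. Removing the GC trend without L1 gave 879 and 621, and without V3 1551 and 1398; these 2 fits and that with both trends removed were chosen after seeing the data. DESeq2's Wald test called 3013 and 2492, limma-voom 2253 and 1975, and scaling by library size alone 2101 and 2081. In the GC-poorest decile, 13.7% rose and 13.1% fell with the GC trend removed, 17.1% and 7.94% with both trends removed, and 42.6% and 0.117% without L1. In the GC-richest decile these were 12.7% and 7.30%, 7.24% and 5.90%, and 2.22% and 10.1%. In each case the cause was not tested.

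With the replicate number as a block 2497 genes rose and 1996 fell, and 1972 and 1701 with the GC trend removed too. The labels do not say that the numbers pair samples. Deviations of same-numbered Vehicle and LPS libraries correlated at 0.00, −0.24 and 0.07. Those of same-numbered LPS and LPS+TSLP libraries correlated at 0.32, 0.40 and −0.10, and those of Vehicle and LPS+TSLP at −0.10, −0.34 and 0.16. Pairs with different numbers were not set beside these, so whether same-numbered samples share more than a number was not tested.

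Of the 152 named genes called, 119 were called in every one of the 10 fits that left out 1 library. With both trends removed 133 of the 152 kept the call. With the GC trend removed and L1 left out, 94 kept it, 57 lost it and 1 changed sign. Some named genes changed sign (log2 values). With both trends removed mt-Nd6 was at −0.37 and Hk1 at 0.27. With the GC trend removed Cftr was at −0.30, and at −0.33 with the block added. Under GC removal without L1 the values were −0.0883 for mt-Nd6, 0.14 for Hk1, −0.31 for Cftr and −0.047 for Scgb1a1, and without V3 0.0182 for Hk1 and −0.27 for Cftr. With the length trend removed Car4 was at −0.0614 and Scgb1a1 at −0.0108. Over the fits that left out 1 library Car4 ranged from −0.0755 to 0.39, Ager from −0.0569 to 0.69, Scgb1a1 from −0.26 to 0.69 and Top2a from −0.51 to 0.46; the changes of sign came without L1 and, for Top2a, also without V3. Except for mt-Nd6 none of these passed as counted.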
